A study of Homo sapiens with 8 samples.

Results

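The genes described here are 41 reported or predicted targets of the miRNAs of the miR-17-92 cluster, miR-17/20a, miR-18a, miR-19 and miR-92a. They were followed by their gene symbol in the platform annotation of Clarion S Human arrays, and 38 of the 41 have a probe set with that name, 1 probe set each. The calcium channel gene PKD2, the adaptor gene CRK and the nuclear receptor coactivator gene NCOA3 have no named probe set and were not analysed here. The 38 measured genes stand among 21448 probe sets in all, 17709 of them with 1 named gene.

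RNA came from CUTLL1, a human T-cell line with aberrant NOTCH1 activation that is sensitive to γ-secretase inhibitors (GSI), drugs that stop NOTCH1 from being cleaved into its active form. The 4 groups, each of 2 arrays, were cells carrying the miRNA cluster (miRNA17-92) with GSI, empty vector cells (Empty-V) with GSI, miRNA17-92 cells with DMSO and Empty-V cells with DMSO. GSI was given at 1 µM, DMSO was its solvent control, and culture lasted 2 days. All groups are lentivirally transduced cells of the same line, sorted for transduction, and their vectors share a backbone with a PGK promoter. Arrays are numbered set 1 and set 2, independent experiments per the supplement. The purpose was to find the part of the NOTCH1-dependent expression programme that passes through the miRNA cluster.

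A miRNA guides a silencing complex to messenger RNAs that pair with its seed, the bases near its 5′ end, mostly in their 3′ untranslated region, which lowers the stability and the translation of the messenger RNA. The miR-17-92 cluster is transcribed as a single precursor from the host gene MIR17HG and is known as an oncogenic cluster in lymphoid cancers, including T-cell leukemia. The arrays measure messenger RNA, so repression of translation alone cannot be seen on them.

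The mature miRNAs of the cluster are shown because they define the gene list. Sequences are those of RefSeq on GRCh38.p14, chromosome 13, plus strand, between positions 91350618 and 91351382, written 5′ to 3′ with the seed, bases 2 to 8, in capitals.
hsa-miR-17-5p: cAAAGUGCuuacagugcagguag
hsa-miR-18a-5p: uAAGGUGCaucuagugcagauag
hsa-miR-19a-3p: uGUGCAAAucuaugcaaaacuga
hsa-miR-20a-5p: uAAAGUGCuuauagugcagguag
hsa-miR-19b-3p: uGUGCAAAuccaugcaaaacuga
hsa-miR-92a-3p: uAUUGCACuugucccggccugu
Here hsa-miR-17-5p and hsa-miR-20a-5p have the same seed, as do hsa-miR-19a-3p and hsa-miR-19b-3p, so the cluster holds 4 different seeds. The DNA complement of the seed is GCACTTT for miR-17/20a, GCACCTT for miR-18a, TTTGCAC for miR-19 and GTGCAAT for miR-92a.

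Of the 38 genes, 8 belong to gene modules that the study derived from these same 8 arrays, Mod-A and Mod-B. AKTIP, ANKRD28, DAZAP2, MKRN1, STYX, PNRC1, CREBRF and ARID4B are in the part of Mod-B that is high in Empty-V cells with GSI, and CREBRF is in Mod-A too. These 8 genes were chosen on the arrays used below, so their direction and their calls under GSI are not independent evidence. The supplement of the study lists the miR-17/20a motif GCACTTT for AKTIP, ANKRD28, DAZAP2, MKRN1, STYX, CREBRF and ARID4B, and the miR-19 motif TTTGCAC for PNRC1, CREBRF and ARID4B. It gives motifs for module genes alone, so the motif groups cannot be told apart from the modules. The other 30 genes lie outside both modules, and results are given for the 8 and the 30 separately.

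Values were log2 expression after the authors' normalization, and the replicates of a group correlated at r 0.994 to 0.995 over all probe sets. Array medians lay between 5.30 and 5.36. The 10 T lineage markers averaged 8.16 to 16.36, above the median level of all probe sets, 5.31. The 4 myeloid, 3 measured stroma and epithelium and 1 measured erythroid markers lay below it, and 2 of 3 measured B lineage markers lay above it (PAX5 at 5.38 and CD79A at 6.45). No probe set is named for MIR17HG. An unnamed probe set of chromosome 13, singled out after its values were seen, had 11.55 and 12.14 in miRNA17-92 cells with GSI, against 6.02 and 6.45 in Empty-V cells with GSI, and 11.04 and 10.66 in miRNA17-92 cells with DMSO, against 7.26 and 6.54 in Empty-V cells with DMSO. Its link to the vector was not tested. Among the target genes, 27 had a mean above 5.31 and 11 below it (MAP3K5, TXNIP, RGMB, FJX1, GAB1, EPHA4, THBS1, CCN2, RASSF2, ATXN1 and ESR1).

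Under GSI, the target genes were lower in miRNA17-92 cells than in Empty-V cells more often than probe sets at large. The difference was below 0 for 32 of the 38 genes (84.2%), against 52.0% of the 21410 other probe sets. The median log2 difference was -0.32 over the 38 genes and -0.015 over the other probe sets. It was -0.90 over the 8 module genes and -0.21 over the 30 genes outside the modules, of which 24 lay below 0 (80.0%). All 8 module genes lay below 0, but they were chosen on these arrays and are not independent evidence. The list of target genes as a whole was drawn up with earlier results of these data known. The set 1 arrays alone gave a median of -0.40 over the 38 genes and the set 2 arrays -0.32. Among the 27 genes above the median level 24 were below 0, with a median of -0.49, but they include all 8 module genes. The 19 of them outside the modules had a median of -0.35, with 16 below 0 (84.2%). The probe sets above the median level had a median of 0.02, and 47.5% of them were below 0. The 11 dimmer genes had a median of -0.13, and 8 of them were below 0 (72.7%). The probe sets below the median level had a median of -0.045, and 56.6% of them were below 0.

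Of the target genes, 7 passed limma's test under GSI at an adjusted p of 0.05, all 7 lower in miRNA17-92 cells and all 7 module genes. Of all probe sets, 0.573% were called lower and 0.499% higher. In 23 of the 38 genes (60.5%) both miRNA17-92 arrays lay below both Empty-V arrays, which holds for 24.5% of all probe sets. In 1 gene, WEE1, both lay above, which holds for 22.2% of all probe sets. Outside the modules, 15 of the 30 genes lay below without overlap. With the set as a block, PNRC1 alone of the 7 passed (1 gene). Without any 1 of the 4 GSI arrays 0 of the 38 passed, and without any 1 of the 4 DMSO arrays 2 passed, CREBRF and PNRC1.

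**Figure D1:**
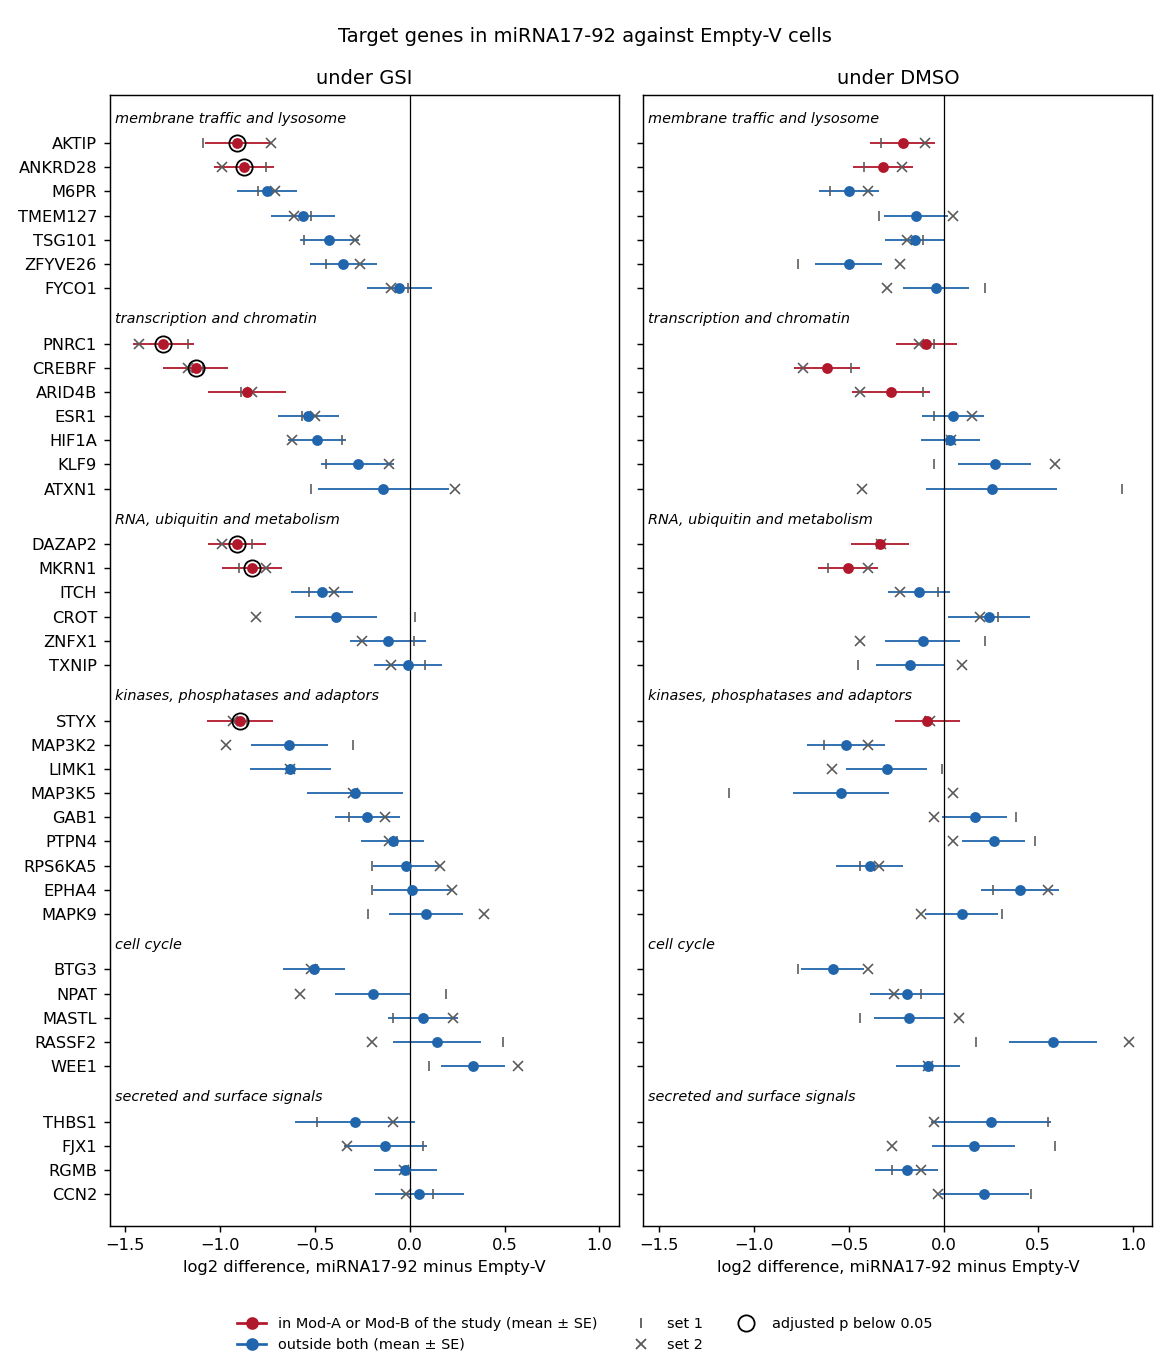
Log2 difference (x axis, miRNA17-92 minus Empty-V) of each of the 38 target genes (y axis, by role) under GSI (left) and under DMSO (right). Filled circles are differences of group means with the standard error of the model, bars and crosses are the differences within set 1 and set 2, and red marks the 8 module genes. Under GSI 32 circles lie left of 0 and 7 are ringed as past an adjusted p of 0.05, and under DMSO 25 lie left of 0 and none is ringed.

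The largest decreases among the 38 were those of PNRC1 and CREBRF, genes of transcription control. PNRC1 (chromosome 6, 89080751 to 89085160), a coactivator of nuclear receptors, had 12.38 and 12.34 in miRNA17-92 cells with GSI, against 13.55 and 13.77 in Empty-V cells with GSI. With DMSO it had 11.91 and 11.97 in miRNA17-92 cells, against 11.96 and 12.10 in Empty-V cells. The groups stood apart under GSI, and under DMSO the arrays of miRNA17-92 and Empty-V cells overlapped. The log2 difference under GSI was -1.30 ± 0.161 (SE, adjusted p = 0.0148, limma), a level 0.406 times that of Empty-V cells, and the one under DMSO was -0.09 ± 0.161 (adjusted p = 0.898).

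CREBRF (chromosome 5, 173056352 to 173139284), a negative regulator of the endoplasmic reticulum stress factor CREB3, had 7.27 and 7.15 in miRNA17-92 cells with GSI, against 8.36 and 8.32 in Empty-V cells with GSI. With DMSO it had 5.95 and 6.04 in miRNA17-92 cells, against 6.44 and 6.78 in Empty-V cells. The arrays did not overlap under either treatment. The log2 difference was -1.13 ± 0.172 under GSI (adjusted p = 0.0286, limma) and -0.62 ± 0.172 under DMSO, the lowest value of the 38 genes there (adjusted p = 0.321). With the set as a block the adjusted p under GSI was 0.0861.

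The other module gene of this role, ARID4B, which encodes a subunit of a histone deacetylase complex, had 9.39 and 9.75 in miRNA17-92 cells with GSI, against 10.28 and 10.58 in Empty-V cells with GSI. These arrays did not overlap either, yet the difference of -0.86 ± 0.206 had an adjusted p of 0.0795 (limma). The 7 measured genes of transcription and chromatin all lay below 0 under GSI, 6 of them without overlap, with a median of -0.54. Of all probe sets 52.1% lay below 0 and 24.5% were lower without overlap. PNRC1, CREBRF and ARID4B are counted here though chosen on these arrays. HIF1A, the oxygen-regulated transcription factor, had a difference of -0.49 ± 0.155 (adjusted p = 0.148) and ESR1, the estrogen receptor, -0.54 ± 0.161 (adjusted p = 0.133), although ESR1 lay below the median level on all 8 arrays, between 2.80 and 3.58. KLF9, a Krüppel-like factor, and the polyglutamine disease gene ATXN1 had -0.28 and -0.14.

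All 7 measured genes of membrane traffic and the lysosome were lower in miRNA17-92 cells without overlap of arrays under GSI, with a median of -0.57, and 2 of them passed the test. Of all probe sets 24.5% were lower without overlap and 0.573% were called lower. The 2 that passed, AKTIP and ANKRD28, are module genes chosen on these arrays. ANKRD28, a phosphatase subunit, was counted in this role and not among the phosphatases. FYCO1 was barely apart, with 10.13 and 10.10 in miRNA17-92 cells, against 10.14 and 10.20 in Empty-V cells. AKTIP (chromosome 16, 53491040 to 53504412), part of a Hook protein complex linked to vesicle transport, had 7.68 and 7.71 in miRNA17-92 cells with GSI, against 8.77 and 8.44 in Empty-V cells with GSI. Its difference was -0.91 ± 0.171 (adjusted p = 0.0478, limma, and 0.121 with the set as a block). ANKRD28 (chromosome 3, 15667236 to 15859814), a regulatory subunit of a protein phosphatase, had 11.25 and 11.19 in miRNA17-92 cells with GSI, against 12.01 and 12.18 in Empty-V cells with GSI, and a difference of -0.88 ± 0.158 (adjusted p = 0.0423, and 0.121 with the block). Under DMSO the arrays of both genes were also apart, with differences of -0.22 for AKTIP and -0.32 for ANKRD28 that did not pass the test.

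M6PR (chromosome 12, 8940361 to 8949645), a receptor that carries lysosomal enzymes from the Golgi, lies outside the modules and stood apart under both treatments. It had 11.75 and 11.79 in miRNA17-92 cells with GSI, against 12.55 and 12.50 in Empty-V cells with GSI, and 11.90 and 11.88 in miRNA17-92 cells with DMSO, against 12.50 and 12.28 in Empty-V cells with DMSO. Neither difference passed alone, at -0.76 ± 0.158 under GSI (adjusted p = 0.0571, limma) and -0.50 ± 0.158 under DMSO (adjusted p = 0.38). The remaining genes of this role did not pass the test: TMEM127, an endosomal and lysosomal membrane protein, had -0.57 under GSI, the ESCRT-I subunit TSG101 -0.43, ZFYVE26, which acts in lysosome reformation, -0.35, and FYCO1, an adaptor of autophagosome transport, -0.06.

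In the role group of RNA, ubiquitin and metabolism, DAZAP2 and MKRN1 were called under GSI and the other 4 genes were not. Both called genes are module genes chosen on these arrays, and 0.573% of all probe sets were called lower. DAZAP2 (chromosome 12, 51238826 to 51246717), a small proline-rich adaptor protein, had 15.03 and 15.04 in miRNA17-92 cells with GSI, against 15.86 and 16.03 in Empty-V cells with GSI, and 15.08 and 15.04 in miRNA17-92 cells with DMSO, against 15.42 and 15.37 in Empty-V cells with DMSO. Its miRNA17-92 arrays lay within 0.05 of each other across treatments, all below the Empty-V arrays. The difference under GSI was -0.91 ± 0.154 (adjusted p = 0.036, limma, and 0.113 with the set as a block). MKRN1 (chromosome 7, 140453033 to 140479569), a RING ubiquitin ligase, had 11.68 and 11.85 in miRNA17-92 cells with GSI, against 12.58 and 12.61 in Empty-V cells with GSI, and 11.60 and 11.69 in miRNA17-92 cells with DMSO, against 12.21 and 12.09 in Empty-V cells with DMSO. It too stood apart under both treatments, with -0.83 ± 0.158 under GSI (adjusted p = 0.0482, and 0.128 with the block) and -0.51 ± 0.158 under DMSO (adjusted p = 0.373).

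Outside the modules, the ubiquitin ligase ITCH had -0.47 under GSI with no overlap (adjusted p = 0.183, limma), and the peroxisomal acyltransferase CROT -0.39 with overlapping arrays. ZNFX1, a zinc finger protein with a helicase domain, had -0.12. TXNIP, the thioredoxin-interacting protein, had -0.01 at a level below the median of all probe sets.

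Among the 9 measured kinases, phosphatases and adaptors, STYX passed the test under GSI and 6 genes stood apart without overlap, all 6 lower (66.7%, against 24.5% of all probe sets). STYX is a module gene chosen on these arrays, and 0.573% of all probe sets were called lower. The 6 include MAP3K5 and GAB1, both below the median level. They also include PTPN4, barely apart at 9.68 and 9.70 in miRNA17-92 cells with GSI, against 9.75 and 9.81 in Empty-V cells with GSI. Under DMSO PTPN4 was higher in miRNA17-92 cells without overlap. STYX (chromosome 14, 52730166 to 52774989), a phosphatase-like protein without catalytic activity, had 11.91 and 12.14 in miRNA17-92 cells with GSI, against 12.77 and 13.07 in Empty-V cells with GSI. With DMSO it had 12.28 and 12.30 in miRNA17-92 cells, against 12.38 and 12.37 in Empty-V cells. The arrays stood apart under both treatments, but the difference was -0.90 ± 0.173 under GSI (adjusted p = 0.0492, limma, and 0.12 with the set as a block) and -0.09 ± 0.173 under DMSO (adjusted p = 0.911). The MAP kinase kinase kinase MAP3K2 had -0.64 ± 0.205 under GSI and -0.52 ± 0.205 under DMSO, and LIMK1, which phosphorylates cofilin, had -0.63 ± 0.214 and -0.30 ± 0.214. Neither gene passed the test under GSI, with adjusted p of 0.156 and 0.17.

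The stress kinase gene MAP3K5 had 3.77 and 3.58 in miRNA17-92 cells with GSI, against 4.05 and 3.88 in Empty-V cells with GSI, and 2.94 and 3.47 in miRNA17-92 cells with DMSO, against 4.07 and 3.42 in Empty-V cells with DMSO. All of these values lie below the median level, and the arrays overlapped under DMSO, where the difference was -0.54 ± 0.252 (adjusted p = 0.532, limma). The JNK gene MAPK9 had 9.50 and 9.83 in miRNA17-92 cells with GSI, against 9.72 and 9.44 in Empty-V cells with GSI, and 9.76 and 9.48 in miRNA17-92 cells with DMSO, against 9.45 and 9.60 in Empty-V cells with DMSO. Its arrays overlapped under both treatments, with differences of 0.09 and 0.10. The ephrin receptor gene EPHA4 had 3.42 and 3.23 in miRNA17-92 cells with DMSO, against 3.16 and 2.68 in Empty-V cells with DMSO, and 0.01 ± 0.206 as its difference under GSI. The tyrosine phosphatase PTPN4, the chromatin kinase RPS6KA5 and the docking protein GAB1 had -0.09, -0.02 and -0.23 under GSI.

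The 5 genes of the cell cycle did not share a direction, and none passed the test. BTG3, which encodes an antiproliferative protein, was lower without overlap under both treatments. It had 9.39 and 9.28 in miRNA17-92 cells with GSI, against 9.88 and 9.80 in Empty-V cells with GSI, and 9.37 and 9.56 in miRNA17-92 cells with DMSO, against 10.14 and 9.96 in Empty-V cells with DMSO. Its differences were -0.51 ± 0.164 (adjusted p = 0.156, limma) and -0.59 ± 0.164 (adjusted p = 0.321).

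WEE1, the kinase that holds back entry into mitosis, had the highest value of the 38 under GSI. It had 13.47 and 13.76 in miRNA17-92 cells with GSI, against 13.37 and 13.19 in Empty-V cells with GSI, a difference of 0.34 ± 0.169 (adjusted p = 0.34, limma) that lay between 0.19 and 0.48 without 1 array. Under DMSO it had 13.72 and 13.66 in miRNA17-92 cells, against 13.80 and 13.74 in Empty-V cells. Its miRNA17-92 arrays thus lay above the Empty-V arrays with GSI and below them with DMSO. RASSF2, a RAS-association domain protein, had 4.56 and 4.90 in miRNA17-92 cells with DMSO, against 4.39 and 3.92 in Empty-V cells with DMSO, the highest difference there at 0.58 ± 0.232 (adjusted p = 0.483), and its arrays overlapped under GSI (0.15 ± 0.232). MASTL, a mitotic kinase, and NPAT, which drives histone gene transcription, had 0.07 and -0.20 under GSI, with overlap.

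The 4 secreted or surface signal genes, THBS1, CCN2, RGMB and FJX1, all lay below the median level, and their arrays overlapped under GSI. Their differences ran between -0.29 for the matrix protein gene THBS1 and 0.05 for the matricellular factor gene CCN2. RGMB, a BMP co-receptor, had -0.03 and FJX1, related to a fly planar polarity gene, -0.13.

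**Figure D2:**
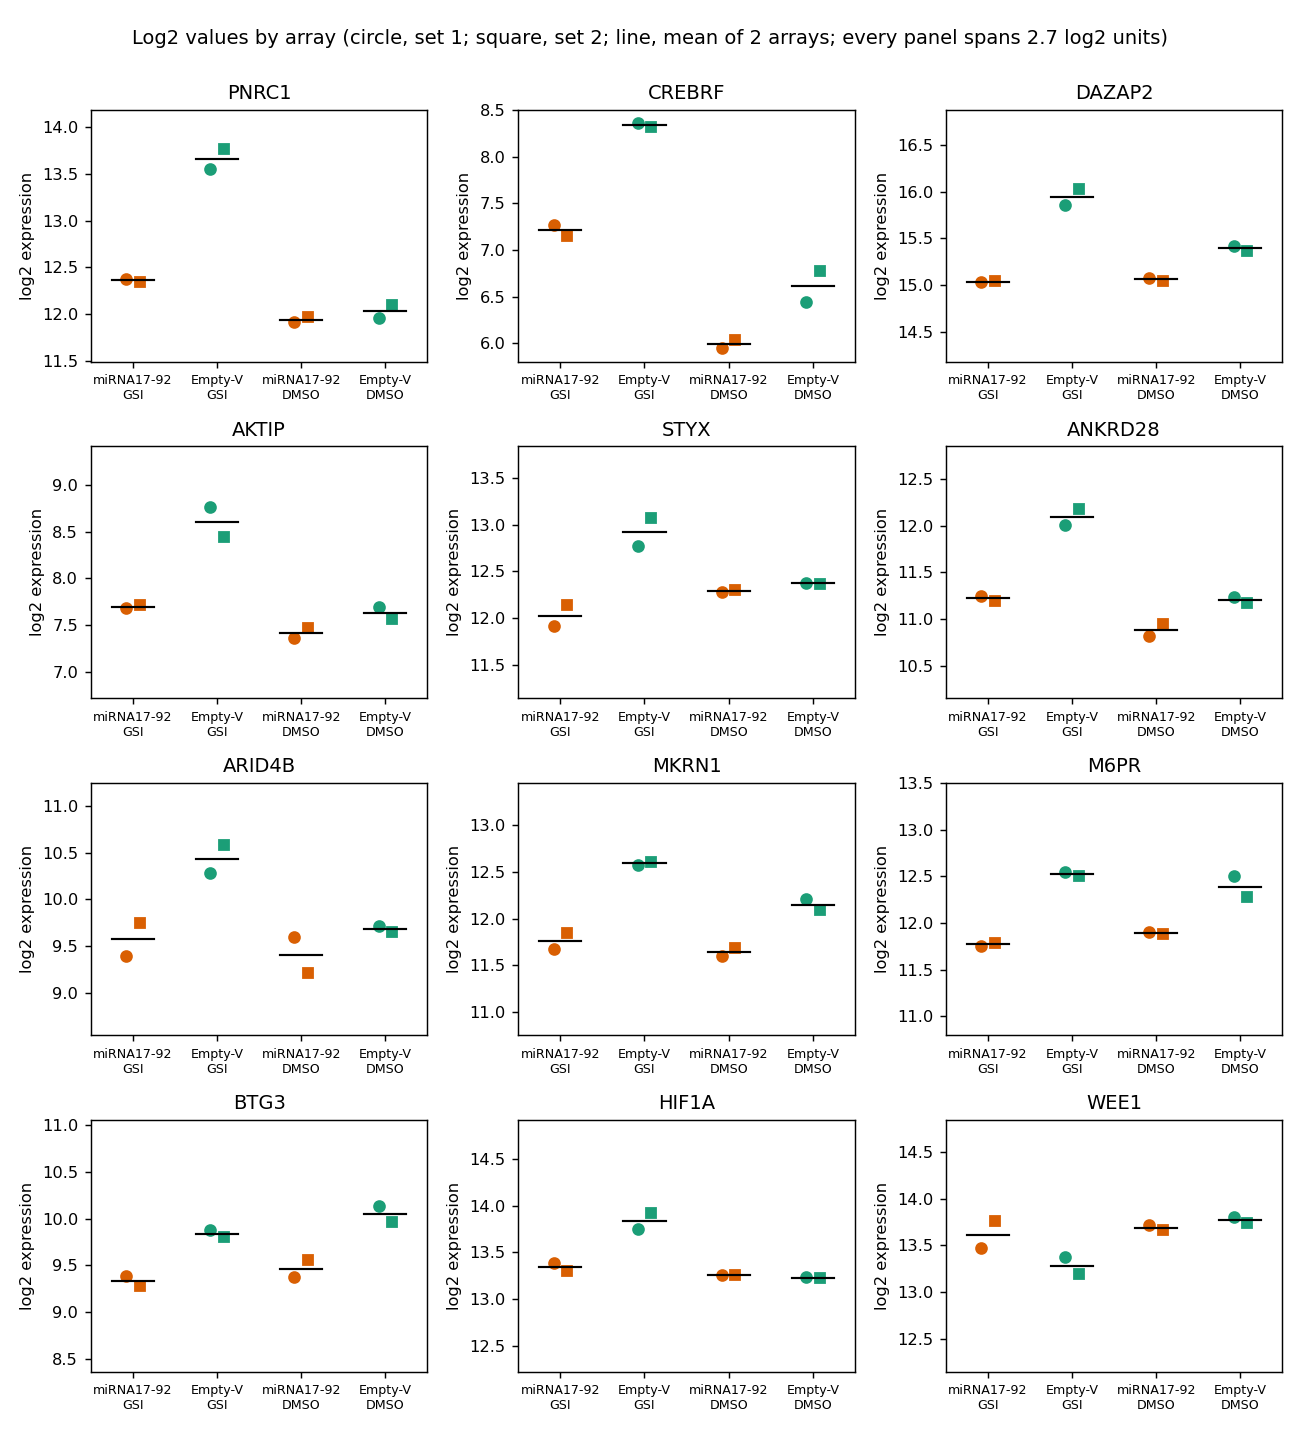
Log2 expression (y axis) of 12 target genes on each of the 8 arrays, grouped on the x axis as miRNA17-92 with GSI, Empty-V with GSI, miRNA17-92 with DMSO and Empty-V with DMSO. Circles are set 1, squares set 2 and lines the mean of 2 arrays. PNRC1 is highest in Empty-V cells with GSI (13.55 and 13.77), M6PR and BTG3 are lower in miRNA17-92 cells under both treatments, and WEE1 is lowest in Empty-V cells with GSI.

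Under DMSO, where NOTCH1 was not inhibited, none of the 38 genes passed limma's test between miRNA17-92 and Empty-V cells (0 genes, 7 at an unadjusted p below 0.05, 6 of them lower). Of all probe sets 0.0233% were called lower and 0.0186% higher, and 9.8% had an unadjusted p below 0.05, 5.2% lower, against 18.4% and 15.8% of the 38 genes. The median was -0.14 over the 38 genes and -0.01 over the other probe sets, and 25 genes lay below 0. The 8 module genes were all below 0, with a median of -0.30, and of the 30 others 17 were (median -0.10). Of these 30, the 19 above the median level had a median of -0.145, with 73.7% below 0. The 11 dimmer ones had 0.165, with 27.3% below 0. The probe sets above and below the median level had medians of -0.02 and 0.0, with 53.3% and 49.6% below 0. Of the 30, 13.3% were lower at an unadjusted p below 0.05 (limma). The arrays did not overlap in 17 genes that were lower (44.7%) and in 5 that were higher, against 22.1% and 19.4% of all probe sets. The 5 higher genes lie outside the modules, as do 10 of the 17 lower ones. Besides CREBRF, BTG3 and MAP3K5, the lowest differences were those of MAP3K2, MKRN1, M6PR and ZFYVE26, between -0.52 and -0.50. The highest after RASSF2 were EPHA4, below the median level, at 0.41 ± 0.206 and KLF9 at 0.27 ± 0.193. Their order rests on single arrays: without 1 array RASSF2 lay between 0.34 and 0.81, EPHA4 between 0.17 and 0.65, KLF9 between 0.10 and 0.44 and MAP3K5 between -0.87 and -0.22. KLF9 had 5.51 and 5.85 in miRNA17-92 cells with DMSO, against 5.56 and 5.26 in Empty-V cells with DMSO, which overlap.

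**Figure D3:**
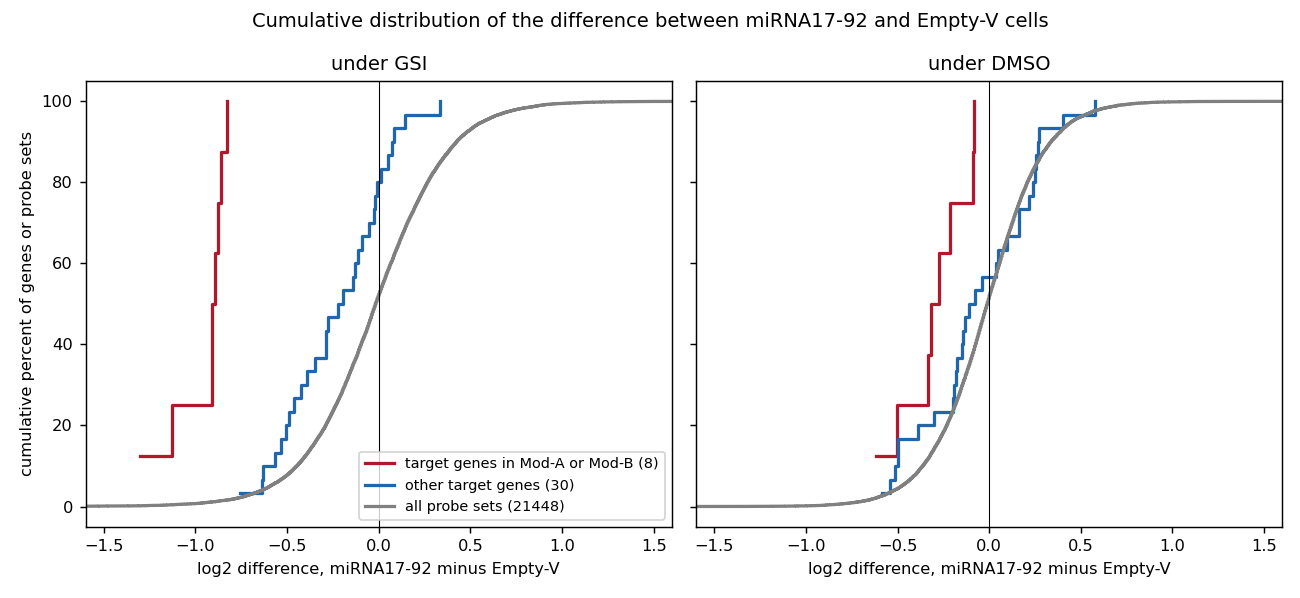
Cumulative percent (y axis) of genes or probe sets by log2 difference (x axis, miRNA17-92 minus Empty-V) under GSI (left) and DMSO (right). Lines stand for the 8 module genes, the 30 other target genes and all 21448 probe sets. Under GSI the medians are -0.90, -0.21 and -0.015, and under DMSO -0.30, -0.10 and -0.01.

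Averaged over both treatments, 5 of the 38 genes were lower in miRNA17-92 cells by limma's test (0.532% of all probe sets were called lower and 0.289% higher): CREBRF (-0.87 ± 0.122, adjusted p = 0.0226), MKRN1 (-0.67 ± 0.112, adjusted p = 0.0365), PNRC1 (-0.70 ± 0.114, adjusted p = 0.0349), M6PR (-0.63 ± 0.112, adjusted p = 0.0439) and DAZAP2 (-0.62 ± 0.109, adjusted p = 0.0425). M6PR is the only one of these 5 outside the modules. None of the 5 passed with the set as a block, where their adjusted p lay between 0.0748 for CREBRF and 0.128 for DAZAP2 and M6PR, and leaving out any 1 array left 0 or, without set 1 of Empty-V cells with DMSO, 1 call (CREBRF). The median over the 38 genes was -0.22, and 30 of them were below 0. It was -0.61 over the 8 module genes and -0.10 over the 30 others, 22 of them below 0, against -0.008 over the other probe sets.

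Whether the difference between miRNA17-92 and Empty-V cells was itself different under GSI and under DMSO was tested as an interaction, and none of the 38 genes passed (0 genes, 7 at an unadjusted p below 0.05, all 7 with a lower difference under GSI). Of all probe sets 0.028% were called, all with a lower difference under GSI, and 12.6% had an unadjusted p below 0.05, 6.0% with a lower difference, against 18.4% of the 38 genes. Of these 7 genes, 5 were among the 8 module genes, which were chosen on these arrays. The other 2 were among the 30 genes outside the modules (6.7%), near the 6.0% of all probe sets. PNRC1 had the lowest value, -1.21 ± 0.228 (adjusted p = 0.201, limma), followed by STYX at -0.81 ± 0.244 (adjusted p = 0.27) and AKTIP at -0.70 ± 0.242 (adjusted p = 0.311). STYX and AKTIP were lower without overlap under both treatments, and the values of the other such genes varied. The module genes ARID4B, DAZAP2, ANKRD28 and CREBRF had -0.585 ± 0.291, -0.575 ± 0.218, -0.555 ± 0.224 and -0.515 ± 0.243. M6PR, BTG3 and MKRN1 had -0.26 ± 0.223, 0.08 ± 0.231 and -0.33 ± 0.223. TSG101, ZFYVE26, MAP3K2 and ITCH had -0.275, 0.15, -0.12 and -0.335. WEE1 had the highest value, 0.42 ± 0.24 (adjusted p = 0.505). The median was -0.33 over the 38 genes, and 30 were below 0. It was -0.58 over the 8 module genes and -0.265 over the 30 others, against -0.005 over all probe sets.

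The response of the target genes to GSI was read in each vector separately. The Empty-V arrays with GSI enter both this comparison and that of the vectors under GSI, so a high value there moves both. In miRNA17-92 cells 1 gene was higher with GSI by limma's test (0.96% of all probe sets were called higher and 0.606% lower), CREBRF, at 1.22 ± 0.172 (adjusted p = 0.00801). In Empty-V cells 5 genes were higher and none lower (3.8% and 3.66% of all probe sets): CREBRF (1.73 ± 0.172, adjusted p = 0.000461), PNRC1 (1.63 ± 0.161, adjusted p = 0.000449), AKTIP (0.98 ± 0.171, adjusted p = 0.0106), ANKRD28 (0.89 ± 0.158, adjusted p = 0.0111) and HIF1A (0.61 ± 0.155, adjusted p = 0.0463). HIF1A, the only one of them outside the modules, had 13.75 and 13.92 in Empty-V cells with GSI, against 13.23 and 13.22 in Empty-V cells with DMSO, and 13.39 and 13.30 in miRNA17-92 cells with GSI, against 13.26 and 13.26 in miRNA17-92 cells with DMSO. Its call was lost with the set as a block (adjusted p = 0.121, limma), with only the 4 arrays compared (adjusted p = 0.109) and without any 1 of the 8 arrays (adjusted p between 0.0679 and 0.197). Without either Empty-V array with DMSO 2 of the 5 passed, CREBRF and PNRC1, and the call of CREBRF in miRNA17-92 cells was lost without set 1 with GSI or either array with DMSO. The median response was 0.02 in miRNA17-92 cells and 0.24 in Empty-V cells, with medians of 0.00 and 0.01 over the other probe sets. Over the 30 genes outside the modules it was -0.05 in miRNA17-92 cells and 0.20 in Empty-V cells. In miRNA17-92 cells 12 genes were higher and 7 lower without overlap (22.8% and 21.9% of all probe sets), and in Empty-V cells 17 were higher and 3 lower (25.6% and 24.5%). WEE1 had the lowest response in Empty-V cells, -0.49 ± 0.169 (adjusted p = 0.123), and -0.08 ± 0.169 in miRNA17-92 cells.

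**Figure D4:**
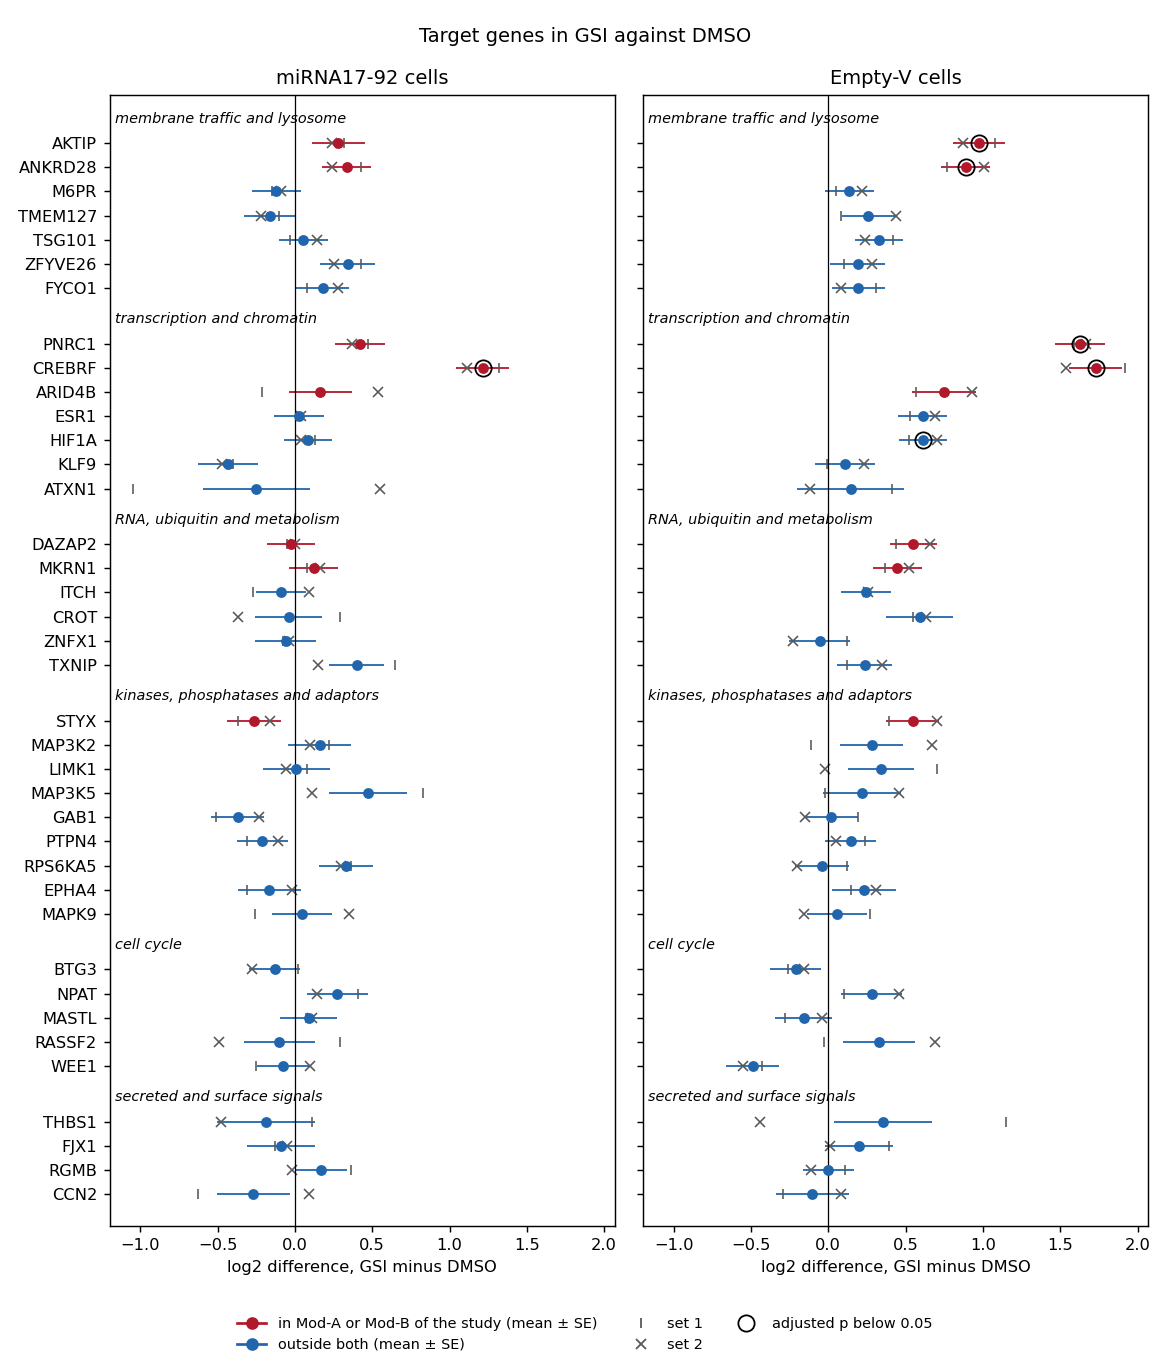
Log2 difference (x axis, GSI minus DMSO) of each of the 38 target genes (y axis, by role) in miRNA17-92 cells (left) and in Empty-V cells (right), with the standard error of the model. Bars and crosses are set 1 and set 2, red marks module genes, and rings mark an adjusted p below 0.05. The ringed gene on the left is CREBRF at 1.22, and the 5 on the right lie between 0.61 and 1.73.

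A further list of 29 genes reported as targets of the cluster was read for comparison, of which 27 were measured and 10 belong to the modules. Under GSI 2 of them passed limma's test, both lower in miRNA17-92 cells and both in the modules, where 0.573% of all probe sets were called lower. The retinoblastoma family gene RBL2 had 11.74 and 11.66 in miRNA17-92 cells with GSI, against 12.92 and 12.83 in Empty-V cells with GSI (-1.18 ± 0.177, adjusted p = 0.0286), and the cyclin G gene CCNG2 had 11.89 and 12.01, against 12.94 and 13.07 (-1.06 ± 0.155, adjusted p = 0.0274). The median of the 27 genes was -0.37 under GSI, with 22 below 0 (81.5%), against -0.015 and 52.1% for all probe sets. These values include the 10 module genes, which were chosen on these arrays, so they are not independent evidence. Under DMSO the median was -0.14, with 17 below 0 (63.0%), against -0.01 and 51.4% for all probe sets. There 0 passed. An unadjusted p below 0.05 was found for 5 (18.5%), 4 of them lower (14.8%), against 9.8% and 5.2% of all probe sets. The higher one was STAT3, outside the modules, at 1.145 ± 0.161 (adjusted p = 0.101, limma), against -0.37 ± 0.161 under GSI. The highest of the 27 under GSI was the module gene E2F1, at 0.87 ± 0.212 (adjusted p = 0.0828, limma). Neither RBL2 nor CCNG2 passed under GSI with the set as a block (adjusted p = 0.0861 for both), and neither passed without any 1 of the 4 GSI arrays (limma).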

How the data were processed

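RNA of 8 CUTLL1 samples was hybridized to Clarion S Human arrays. The authors ran SST-RMA in Transcriptome Analysis Console, which corrects background, normalizes and summarizes the probes of each gene (hg38 in the supplement), and the deposited log2 values were used as they are (range 1.97 to 18.49). Genes were named through the platform annotation and positions taken from RefSeq. A model of 4 group means over all 8 arrays was fitted with limma 3.58.1 in R 4.3.3 (4 residual degrees of freedom, prior 5.29), tested on simulated data beforehand. The simulated arrays varied independently, so that test does not cover the correlation between same-numbered arrays described below. Benjamini-Hochberg adjustment ran over all 21448 probe sets in each of 6 comparisons, at a threshold of 0.05. With 2 arrays a group their number limits the precision.

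Set numbers were taken to pair the samples, since the supplement names independent experiments. Deviations of same-numbered arrays correlated between groups at r -0.240 to -0.192 in all 6 pairs of groups, which makes differences vary more than the unblocked model assumes. The set was therefore used as a block as an alternative.

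Members and lists were chosen with earlier results of these data known. Values by array are given for target genes that passed a test of the cluster, the 5 lowest and 3 highest differences under GSI, the 3 lowest and 3 highest under DMSO and the 3 smallest p-values for GSI. ARID4B and HIF1A, also given by array, and other genes named within a role were singled out after their values were seen. So were STAT3 and E2F1 of the further list. Further alternatives were quantile normalization, leaving out dim probe sets (mean below 5.31), an intensity trend with a robust prior, only the arrays compared, a threshold of 0.1, leaving out each array and leaving out module genes. Figures were drawn with matplotlib 3.10.9.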

Additional observations from a re-analysis of the deposited data

How the results depend on the processing

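No called difference of a target gene described by array changed sign under any alternative. For the cluster under GSI, the 7 genes called lower became 1 with the set as a block (PNRC1), 0 with only the 4 arrays compared, 11 with an intensity trend and robust prior and 0 without the module genes. Calls in either direction over all 21448 probe sets moved as well. They were 230 in the main fit, 33 with the block, 34 with only the 4 arrays compared and 1232 with the trend. Leaving out any 1 array lost calls of target genes, as given above, and calls over all probe sets fell as well. Such a fit leaves 1 array in a group. The median difference of the target genes lay between -0.37 and -0.32 in these fits. The median of -0.32 became -0.49 without dim probe sets or, chosen after seeing the data, without dim target genes, and -0.21 without module genes. Under DMSO the median of -0.138 was -0.11 after quantile normalization, -0.18 without dim probe sets or dim target genes, -0.095 without module genes and -0.162 to -0.103 without 1 array. Averaged over treatments, the 5 calls became 0 with the set as a block, 10 without dim probe sets, 11 with the trend, 8 at a threshold of 0.1, 1 without module genes (M6PR) and 0 to 1 without 1 array. Over all probe sets, 176 calls in either direction became 25 with the block, 532 of 10724 without dim probe sets and 726 with the trend. The median of -0.216 became -0.355 without dim probe sets or dim target genes, -0.101 without module genes and -0.244 to -0.198 without 1 array. PNRC1 passed the interaction with the trend (1 gene), where 111 of all probe sets were called, against 6 in the main fit.

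For GSI in miRNA17-92 cells, the 1 call was lost (0) without module genes and without set 1 of miRNA17-92 cells with GSI or either array of miRNA17-92 cells with DMSO. The median of 0.018 turned to -0.018 after quantile normalization and -0.05 without module genes, was 0.055 without dim probe sets or dim target genes, and lay between 0.01 and 0.06 without 1 array. For GSI in Empty-V cells, 5 higher calls became 9 without dim probe sets, with the trend and at a threshold of 0.1, 1 without module genes, and 2 to 4 without 1 array (2 without either Empty-V array with DMSO, 3 without either with GSI). Over all probe sets, 1601 calls in either direction became 2359 of 10724 without dim probe sets and 2551 with the trend. WEE1 was called lower (1 gene) without dim probe sets and with the trend. The median of 0.24 became 0.28 without dim probe sets or dim target genes, 0.198 without module genes and 0.22 to 0.28 without 1 array. Besides the calls given above, the block changed no call of a target gene described by array. The cause of these changes was not tested, apart from the smaller number of arrays or genes where some were left out.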
